A study of Mus musculus with 5 samples.

Results

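The widest stretches of H2AK119Ub, a ubiquitin on a lysine near the end of histone H2A, were the 296 listed peaks above 50 kb, out of 5132 peaks in 4 lists. They were chosen by width alone, from the start and end that the authors' peak calling gave each peak, and are called domains here. The marks were mapped by chromatin immunoprecipitation and sequencing in lineage-negative bone marrow progenitors of C57BL/6 mice, put in liquid culture. All cells carried R26CreERT2, Ring1a-/-, Ring1bf/f and Cdkn2a-/-; that is, a tamoxifen-activated Cre recombinase, no Ring1a, a Ring1b gene that Cre can delete and no Cdkn2a. The labels do not say whether Ring1b had been deleted. The groups were cells transduced with HOXA9, with PML-RARa or with MLL-AF9, and non-transduced cells, with 1 library each. The labels used here list no cells with an empty vector, so oncogene and transduction effects cannot be told apart. Without replicates no difference between lists could be tested. The age and number of the animals were not stated.

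H2AK119Ub is written by RING1A or RING1B, the enzymes of the Polycomb complex PRC1, and it marks silenced developmental genes. Wide domains of Polycomb marks are known over clusters of homeobox genes, where neighbouring genes are silenced together. HOXA9 is a homeobox transcription factor of immature blood cells, PML-RARa is the fusion protein of acute promyelocytic leukaemia, and MLL-AF9 is a fusion protein of acute myeloid leukaemia that is known to keep HoxA genes active.

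The non-transduced list held the most domains. There were 35 in the HOXA9 list, 86 in the PML-RARa list and 67 in the MLL-AF9 list, against 108 in the non-transduced list. They made up 5.65% of HOXA9 peaks (exact 95% interval 3.96 to 7.76), 4.85% of PML-RARa peaks (3.90 to 5.96) and 4.76% of MLL-AF9 peaks (3.71 to 6.00), against 8.11% of non-transduced peaks (6.70 to 9.71). Intervals here are Clopper-Pearson intervals over peaks and cover counting error only. Of the covered length, domains took 18.5% in HOXA9 cells, 17.6% in PML-RARa cells and 16.9% in MLL-AF9 cells, against 24.9% in the non-transduced list. The PML-RARa list had 1.33 times as many peaks as the non-transduced list but 0.796 times as many domains. For MLL-AF9 the ratios were 1.06 for peaks and 0.620 for domains, and for HOXA9 0.465 and 0.324. Sequencing depth is unknown, and its part in these widths was not tested.

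Most domains were not far above the limit. Their median width was 64.0 kb in HOXA9 cells, 65.2 kb in PML-RARa cells and 64.2 kb in MLL-AF9 cells, against 67.4 kb in the non-transduced list. Widths above 75 kb were reached by 11 HOXA9, 27 PML-RARa and 15 MLL-AF9 domains, against 39 non-transduced ones. Widths above 100 kb were reached by 3 HOXA9, 9 PML-RARa and 3 MLL-AF9 domains, against 9 non-transduced ones. At the limit itself, the narrowest domains measured 50.5 kb in HOXA9 (chromosome 5), 50.5 kb in PML-RARa (chromosome 12) and 50.1 kb in MLL-AF9 (chromosome 9), against 50.1 kb in the non-transduced list (chromosome 15). The widest peaks left out measured 49.6, 49.7 and 49.7 kb in HOXA9, PML-RARa and MLL-AF9, against 49.975 kb in the non-transduced list.

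**Figure D1:**
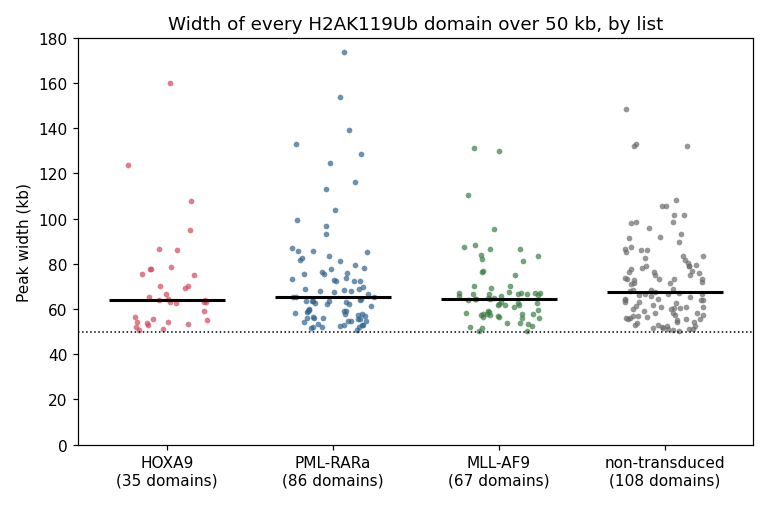
Width in kb of each of the 296 domains, by peak list; each point is 1 domain, black bars are medians and the dotted line is the 50 kb limit. The medians lie between 64.0 and 67.4 kb, and the widest domain, 174 kb, is in the PML-RARa list.

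The deposited peak score, the authors' own value with an unstated scale, was read only within each list. Domains tended to score above their list. Of the domains, 74.3% exceeded the list median in HOXA9 cells, 77.9% in PML-RARa cells and 71.6% in MLL-AF9 cells, against 66.7% in the non-transduced list. Domains below their list median numbered 9 of 35 for HOXA9, 19 of 86 for PML-RARa cells and 17 of 67 for MLL-AF9 cells, against 36 of 108 for non-transduced cells, whose list median was 928. Within the domains, whose range of widths is cut by the choice, Spearman's rho of width and score was -0.013 over the 35 HOXA9 domains, 0.070 over the 86 PML-RARa domains, 0.11 over the 67 MLL-AF9 domains and -0.082 over the 108 non-transduced domains; the points of each value share 1 library. Over all peaks of a list it was 0.27 in HOXA9, 0.24 for PML-RARa and 0.26 for MLL-AF9, against 0.24 in the non-transduced list. Pearson's r over the domains was 0.018, 0.093 and 0.23 for these oncogene lists, against -0.0054 for the non-transduced list.

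Each domain was then looked up in the other lists. It was counted as held where 1 peak of the other list covered at least 80% of it, as split where it was not held and 2 or more peaks lay on it, as shortened where it was not held and 1 peak lay on it, and as absent where no listed peak shared 1 bp with it. A wide peak has more bases on which to meet a peak of another list, so its share with a partner is raised by the choice of wide peaks itself. To be held, a wide peak needs a single wide partner, so the held share tends to be lowered by the same choice. Held shares of domains and of all peaks are therefore not on equal terms.

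Most domains of the oncogene lists had a non-transduced partner. Of the 35 HOXA9 domains, 31 had a partner in the non-transduced list (88.6%, interval 73.3 to 96.8), against 66.3% of all HOXA9 peaks. Of these 35, 15 were held (42.9%, against 49.7% of all HOXA9 peaks), 6 split, 10 shortened and 4 absent. Of the 86 PML-RARa domains, 71 had a non-transduced partner (82.6%, interval 72.9 to 89.9), against 48.2% of all PML-RARa peaks. Here 26 were held (30.2%, against 29.7% of all PML-RARa peaks), 18 split, 27 shortened and 15 absent. Of the 67 MLL-AF9 domains, 53 had a non-transduced partner (79.1%, interval 67.4 to 88.1), against 54.5% of all MLL-AF9 peaks. Here 29 were held (43.3%, against 41.3% of all MLL-AF9 peaks), 9 split, 15 shortened and 14 absent.

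Seen from the non-transduced side, a smaller share of the domains was held in each pair of lists, and in HOXA9 this share was close to that of all non-transduced peaks. In the HOXA9 list 48 of the 108 non-transduced domains had a partner (44.4%, interval 34.9 to 54.3), against 31.3% of all non-transduced peaks. Of the 108, 18 were held there (16.7%, against 18.7% of all non-transduced peaks), 6 split, 24 shortened and 60 absent. In the PML-RARa list 84 had a partner (77.8%, interval 68.8 to 85.2), against 64.1% of all non-transduced peaks. There 29 were held (26.9%, against 45.1% of all non-transduced peaks), 15 split, 40 shortened and 24 absent. In the MLL-AF9 list 82 had a partner (75.9%, interval 66.7 to 83.6), against 57.4% of all non-transduced peaks. There 24 were held (22.2%, against 34.6% of all non-transduced peaks), 12 split, 46 shortened and 26 absent. Counted over the oncogene lists, 67 of the 108 non-transduced domains were held in none, 20 in 1, 12 in 2 and 9 in all 3. This count was not made over all non-transduced peaks, so it does not set the domains apart from them. All comparisons with the oncogene lists share the 1 non-transduced library.

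**Figure D2:**
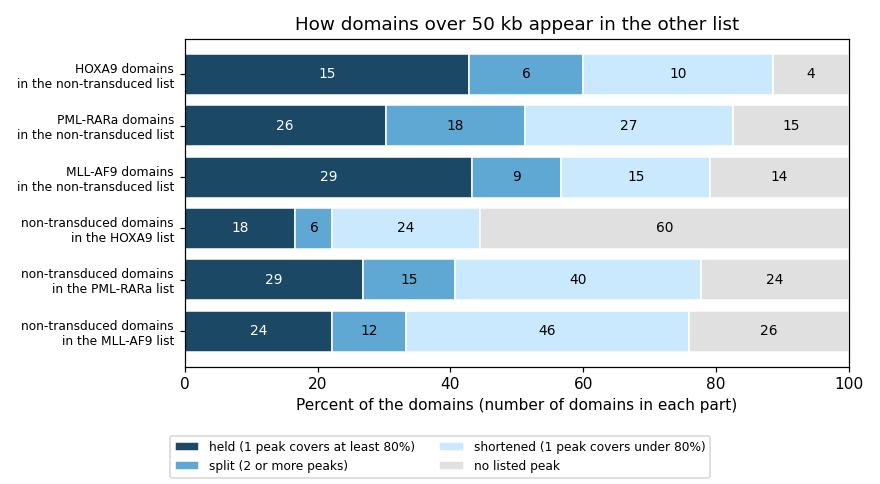
Percent of the domains of 1 list that are held, split, shortened or without a listed peak in the other list; the digits in the bars are numbers of domains. Of the 108 non-transduced domains 60 have no listed peak in HOXA9, against 24 in PML-RARa and 26 in MLL-AF9.

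Between oncogene lists, most HOXA9 domains had a partner. Of the 35 HOXA9 domains, 33 had a PML-RARa partner, against 80.3% of all HOXA9 peaks, and 32 had an MLL-AF9 partner, against 72.4%. Of the 67 MLL-AF9 domains, 57 had a PML-RARa partner, against 64.6% of all MLL-AF9 peaks, and 35 had a HOXA9 partner, against 32.5%. Of the 86 PML-RARa domains, 69 had an MLL-AF9 partner, against 50.8% of all PML-RARa peaks, and 44 had a HOXA9 partner, against 28%.

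The share of bases covered is less affected by width than a 1 bp overlap. Of the bases in oncogene domains, the non-transduced list covered 68.3% for HOXA9, 60.6% for PML-RARa and 64.4% for MLL-AF9. The same shares over the narrower peaks of those lists were 60.7%, 44.7% and 53.4%, below those of the domains in each oncogene list. The medians per peak did not all follow: for HOXA9 the median domain was covered to 77.5% and the median narrower peak to 81.8%. Among peaks with a partner, the median domain was covered less than the median peak of 25 to 50 kb, with 83.2% against 98.4% for HOXA9, 79.9% against 87.2% for PML-RARa and 92.7% against 96.0% for MLL-AF9. Non-transduced domains and narrower peaks lay closer together in the share of bases, though not in all medians per peak. The bases of the domains were covered to 27.7% in HOXA9 cells, 51.9% in PML-RARa cells and 49.7% in MLL-AF9 cells, and those of the narrower non-transduced peaks to 26.1%, 54.7% and 46.8%. Domains minus narrower peaks came to 1.64 points in HOXA9, -2.74 points in PML-RARa and 2.995 points in MLL-AF9, and the PML-RARa difference was 0.35 points against peaks of 25 to 50 kb. The median non-transduced domain was covered to 56.6% in PML-RARa and 60.6% in MLL-AF9, and the median narrower peak to 75.5% and 47.8%. In HOXA9 both medians were 0%. Of the 7.82 Mb in non-transduced domains, 36.0% lay in no oncogene list and 20.9% in all 3, against 31.6% and 17.6% for narrower non-transduced peaks.

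Where 1 domain and 1 peak formed a pair, widths could be set side by side. A domain is chosen for being wide in its own list, so partners tend to be narrower by that choice, and the useful comparison is between both directions of choice. In 68 such pairs of a non-transduced domain and an MLL-AF9 peak, the MLL-AF9 peak was narrower in 64, and the median width ratio of MLL-AF9 to non-transduced was 0.663. In 40 pairs chosen for a wide MLL-AF9 peak, the non-transduced peak was narrower in 19 and wider in 21, with a median ratio of non-transduced to MLL-AF9 of 1.00. The PML-RARa pairs were less one-sided. The PML-RARa peak was narrower in 53 of the 63 pairs chosen in the non-transduced list (median ratio of PML-RARa to non-transduced 0.642), and the non-transduced peak was narrower in 32 of the 51 pairs chosen in PML-RARa (median ratio of non-transduced to PML-RARa 0.814). For HOXA9, the HOXA9 peak was narrower in 35 of 40 pairs chosen in the non-transduced list (median ratio of HOXA9 to non-transduced 0.716). In pairs chosen in HOXA9 the non-transduced peak was narrower in 16 of 24 (median ratio of non-transduced to HOXA9 0.844). These differences between directions were not tested.

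Each domain was divided into 10 bins of equal length. Between each oncogene list and the non-transduced list, coverage was highest at or beside the middle and lower toward both ends. Among non-transduced domains with a partner, MLL-AF9 peaks covered on average 80.1% of the central pair of bins and 46.1% of the outermost pair. The values were 74.3% and 53.1% for PML-RARa, and 74.3% and 46.9% for HOXA9. Oncogene domains showed the same shape in the non-transduced list, with 94.4% against 68.1% for MLL-AF9 domains, 84.6% against 55.8% for PML-RARa domains and 90.7% against 54.2% for HOXA9 domains. Since a peak that reaches only part of a domain must miss an end, this shape partly follows from the choice of wide peaks.

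**Figure D3:**
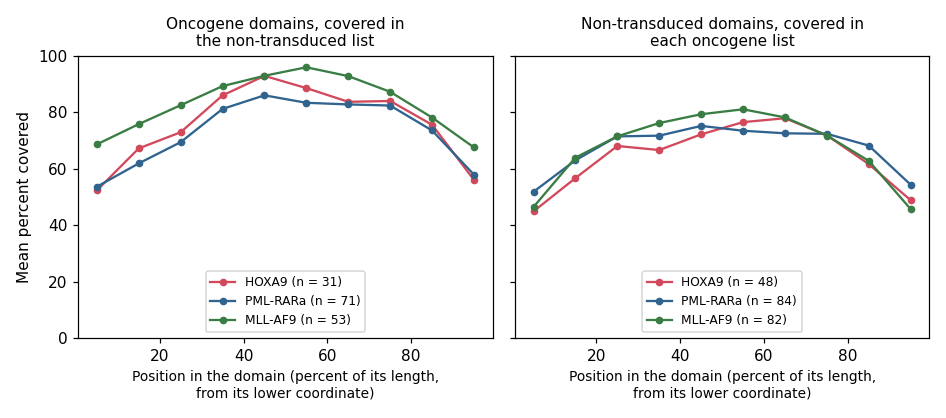
Mean percent of each of 10 bins along a domain that is covered by peaks of the other list, over the domains with a partner (n in the legend), from the lower to the higher coordinate. All 6 lines are highest in or beside the central pair of bins, where MLL-AF9 domains average 94.4% in the non-transduced list.

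Some ends of domains were shared between lists. An end was counted as shared where both peaks of a pair ended within 500 bp. Among pairs of an oncogene domain and a non-transduced peak, at least 1 end was shared in 10 of 24 HOXA9, 15 of 51 PML-RARa and 18 of 40 MLL-AF9 pairs. For peaks of 25 to 50 kb of the same oncogene lists the share was higher in each, with 49 of 100 HOXA9, 95 of 203 PML-RARa and 78 of 161 MLL-AF9 pairs. Both ends were shared in 0, 2 and 2 of the domain pairs. Among pairs chosen for the non-transduced domain, at least 1 end was shared in 15 of 40 with HOXA9, 14 of 63 with PML-RARa and 25 of 68 with MLL-AF9. That is 37.5%, 22.2% and 36.8% of the pairs. Among pairs of non-transduced peaks of 25 to 50 kb, at least 1 end was shared in 54 of 115 with HOXA9, 88 of 177 with PML-RARa and 90 of 180 with MLL-AF9.

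Splitting often came down to a narrow break. No list held peaks closer to each other than 802 bp, so shorter interruptions do not appear as breaks. Of the 13 non-transduced domains on which 2 or more MLL-AF9 peaks lay, the MLL-AF9 peaks together covered at least 80% of the domain in 10, and the widest break was under 3 kb in 10. For PML-RARa these numbers were 9 and 8 of 15 domains, and for HOXA9 1 and 3 of 6. A domain on chromosome 9 at 107550427 to 107614626, 64.2 kb wide, was held by none of the oncogene lists but covered to 98.5% by 2 HOXA9 peaks, 98.4% by 2 PML-RARa peaks and 95.4% by 3 MLL-AF9 peaks. Its breaks were 815 bp in HOXA9, 1001 bp in PML-RARa and at most 979 bp in MLL-AF9. A domain on chromosome 11 at 118346116 to 118444813 (98.7 kb) lay under 2 MLL-AF9 peaks of 36.7 and 61.6 kb with a break of 871 bp. In PML-RARa 26.5% of it was covered, and in HOXA9 it had no listed peak.

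The widest non-transduced domain was broken up over longer distances. It measured 149 kb on chromosome 2 at 166919842 to 167068380. HOXA9 peaks of 18.9 and 12.7 kb covered 16.0% of it, and 3 PML-RARa peaks of 22.5, 29.1 and 15.0 kb lay on 38.4% of it. In MLL-AF9, peaks of 9.01, 25.2 and 6.07 kb lay on 25.1%. The breaks between these pieces reached 73.9 kb in HOXA9 cells, 45.4 kb in PML-RARa cells and 78.0 kb in MLL-AF9 cells. Further domains in 3 PML-RARa pieces lay on chromosome 1 at 75433644 to 75508747 (89.0% covered) and on chromosome 7 at 25904837 to 25972674 (87.6% covered). Their breaks were shorter, at most 7.20 kb on chromosome 1 and 7.56 kb on chromosome 7. In HOXA9, 2 pieces lay on 57.6% of a domain on chromosome 16 at 18534260 to 18640056, and 2 on 69.1% of one on chromosome 2 at 33408564 to 33506540. The break between the HOXA9 pieces was 0.995 kb on chromosome 16 and 9.32 kb on chromosome 2. In both lists of fusion oncogenes the chromosome 16 domain, 106 kb in the non-transduced library, was a single peak, of 62.6 kb in PML-RARa cells and 57.9 kb in MLL-AF9 cells.

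Some non-transduced domains met 1 peak that covered little of them. The domain on chromosome 17 at 87140482 to 87203641 (63.2 kb) was covered by a peak of 5.83 kb in HOXA9 cells, 12.0 kb in PML-RARa cells and 12.1 kb in MLL-AF9 cells. The domain on chromosome 4 at 57129878 to 57192937 (63.1 kb) was covered to 17.5% in HOXA9 cells, 22.8% in PML-RARa cells and 14.2% in MLL-AF9 cells. On chromosome 2 at 163014486 to 163096003 (81.5 kb), 14.3% was covered in MLL-AF9 and 25.4% in PML-RARa, and HOXA9 listed no peak. On chromosome 2 at 157999213 to 158070201 (71.0 kb), 10.8% was covered in PML-RARa and 21.1% in MLL-AF9. A domain on chromosome 17 at 46578123 to 46651385 had a PML-RARa peak of 11.7 kb and no peak in the other oncogene lists. On chromosome 4 at 149241400 to 149299676 a PML-RARa peak of 49.2 kb touched 5.93% of the domain and lay mostly beyond it. On chromosome 10 at 126998983 to 127059709 a HOXA9 peak of 46.3 kb likewise touched 12.0% of the domain.

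Merging domains that overlap between lists gave 191 loci over 14.1 Mb of mm9. Of these, 126 (66.0%) exceeded 50 kb in 1 list only, 36 in 2, 20 in 3 and 9 in all 4. Most of the single ones were still marked elsewhere: 37 of the 126 had a listed peak in all 4 lists, and 25 had none outside their own list. Over all peaks, the share with none in another list was 7.42% for HOXA9, 32.7% for PML-RARa and 23.0% for MLL-AF9, against 23.2% for non-transduced. A wide locus meets other peaks more easily, so these shares are not on equal terms. A peak over 50 kb in 1 list alone was found at 10 loci in HOXA9 cells, 37 in PML-RARa cells and 21 in MLL-AF9 cells, against 58 in the non-transduced list. Peaks of any width covered 30.6% of the total locus length in HOXA9 cells, 62.7% in PML-RARa cells and 55.2% in MLL-AF9 cells, against 70.7% in the non-transduced list.

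**Figure D4:**
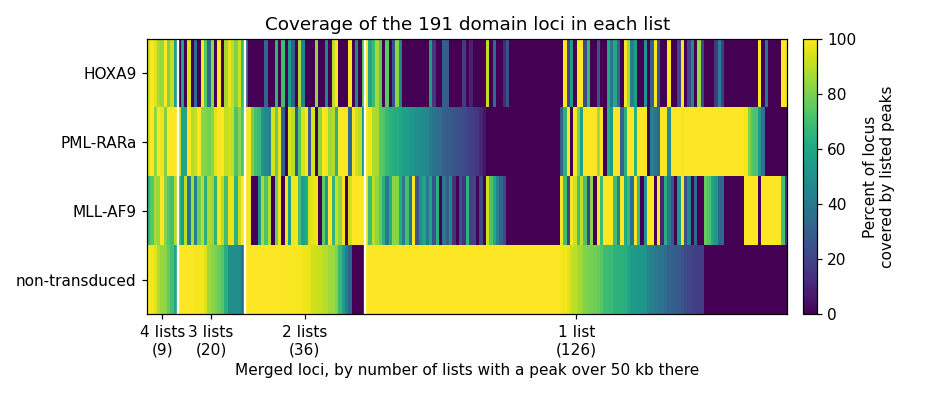
Percent of each of the 191 merged loci that listed peaks cover, by list; columns are loci, grouped by the number of lists with a peak over 50 kb there (9, 20, 36 and 126 loci). HOXA9 is darkest, covering 30.6% of the total length, against 70.7% in the non-transduced list. Each list covers its own domains fully, so this contrast partly follows from how many domains each list gave.

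The 9 loci over 50 kb in all 4 lists lay on chromosomes 7 (2), 10 (1), 11 (2) and 15 (4). The widest was on chromosome 15 at 102742683 to 102902590. In mm9 this stretch is known to hold the HoxC cluster, a row of homeobox genes that set position along the body axis. Its peak measured 160 kb in HOXA9 cells, 129 kb in PML-RARa cells and 130 kb in MLL-AF9 cells, against 133 kb in the non-transduced list. The starts lay within 3.04 kb of each other. The HOXA9 peak ended at 102902590, while PML-RARa ended at 102874297, MLL-AF9 at 102874819 and the non-transduced peak at 102876080.

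At several other loci of this group the ends matched better on 1 side than on the other. On chromosome 15 at 78445380 to 78577668 the peak measured 124 kb in HOXA9 cells, 125 kb in PML-RARa cells and 87.4 kb in MLL-AF9 cells, against 132 kb in the non-transduced list. Its higher ends fell within 1.04 kb, whereas the starts spread over 43.9 kb. On chromosome 10 at 79897512 to 80001479 a single PML-RARa peak of 104 kb lay where MLL-AF9 had peaks of 32.9 and 58.9 kb. HOXA9 had 58.9 kb and the non-transduced list 61.8 kb there. On chromosome 7 at 151563494 to 151662686 the widths were 86.1 kb in HOXA9 cells, 99.2 kb in PML-RARa cells and 84.1 kb in MLL-AF9 cells, against 87.2 kb in the non-transduced list, with higher ends within 1.16 kb. On chromosome 15 at 88954187 to 89041315 the starts lay within 5.38 kb and the higher ends within 17.8 kb. The closest match of ends was on chromosome 11 at 119367852 to 119443138, where all 4 peaks ended within 37 bp of each other. There HOXA9 and PML-RARa had a single peak of 75.02 and 75.3 kb, MLL-AF9 a peak of 56.0 kb, and the non-transduced list 2 peaks of 17.7 and 56.4 kb.

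The remaining Hox clusters, placed here by their known position in mm9, also carried domains, each in a different set of lists. At HoxD, on chromosome 2 at 74491905 to 74557368, the peak measured 65.3 kb in HOXA9 cells, 65.5 kb in PML-RARa cells and 64.2 kb in MLL-AF9 cells, against 48.1 kb in the non-transduced list. The widest peaks of all 4 lists began within 81 bp of each other. In the non-transduced list a further peak of 2.39 kb lay 0.879 kb beyond the first. In MLL-AF9 a further peak of 37.6 kb lay 0.937 kb beyond the first. At HoxB, on chromosome 11 at 96106629 to 96196529, peaks of 85.7 kb in PML-RARa cells and 58.0 kb in MLL-AF9 cells stood against 72.7 kb in the non-transduced list, and HOXA9 listed no peak. At HoxA, on chromosome 6 at 52141970 to 52210289, the domain was present in HOXA9 (64.5 kb) and PML-RARa (68.2 kb) and measured 26.4 kb in MLL-AF9, against 68.3 kb in the non-transduced list.

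**Figure D5:**
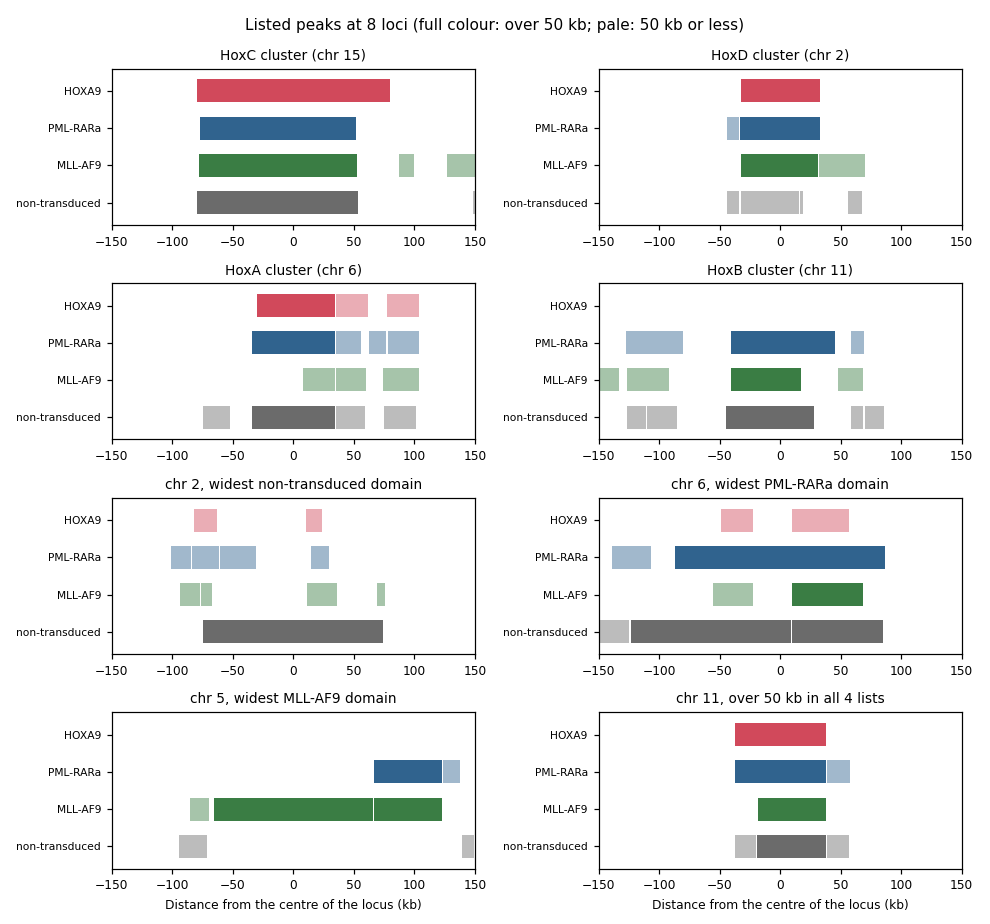
Listed peaks of the 4 lists at 8 loci, as bars along the distance in kb from the centre of the locus; full colour marks peaks over 50 kb and pale colour narrower ones, and bars that reach the frame continue beyond it. At HoxC all 4 lists have a peak of 129 to 160 kb, and at the widest non-transduced domain (149 kb, chromosome 2) the oncogene lists have pieces of at most 29.1 kb.

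At 7 loci all 3 oncogene lists exceeded 50 kb and the non-transduced list did not. The mark was listed there in the non-transduced library too, with a widest peak of 34.5 to 49.1 kb and 37.7 to 77.1% of the locus covered. HoxD was 1 of them, but this rested on 1 narrow break. There the non-transduced peaks of 48.1 and 2.39 kb lay 0.879 kb apart and together with the break spanned more than 50 kb. On chromosome 2 at 92982424 to 93051121 the widths were 66.7 kb in HOXA9 cells, 63.8 kb in PML-RARa cells and 66.5 kb in MLL-AF9 cells, against 34.5 kb in the non-transduced list. On chromosome 4 at 107640812 to 107711261 they were 63.8, 63.6 and 67.7 kb in HOXA9, PML-RARa and MLL-AF9, against 34.8 kb in the non-transduced list. On chromosome 2 at 28008842 to 28119450, the third-widest MLL-AF9 peak, 111 kb, lay where HOXA9 had 75.5 kb and PML-RARa 79.3 kb, against 41.7 kb in the non-transduced list. At 10 loci every list but HOXA9 exceeded 50 kb. HOXA9 listed no peak at 6 of them and peaks of 25.4 to 46.9 kb at the other 4. Over all 191 loci HOXA9 listed a peak at 91, so a missing HOXA9 peak does not set these 10 apart.

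The widest PML-RARa domains lay where other lists held narrower peaks or none. Its widest, 174 kb on chromosome 6 at 89252610 to 89426491, lay over HOXA9 peaks of 26.4 and 46.9 kb and MLL-AF9 peaks of 33.1 and 58.5 kb. The non-transduced list had peaks of 132 and 75.2 kb there, which were 975 bp apart and covered 98.4% of it. The next, 154 kb on chromosome 18 at 38833427 to 38987095, had no HOXA9 or MLL-AF9 peak and was covered to 43.2% in the non-transduced list. It began 823 bp beyond another PML-RARa domain of 113 kb, so that both together formed an almost unbroken stretch. The third-widest HOXA9 domain, 108 kb from 38708392 to 38816079, overlapped that 113 kb domain. The PML-RARa domain of 139 kb on chromosome 8 at 114223107 to 114362539 lay over 2 HOXA9 peaks that covered 91.5% of it, 3 MLL-AF9 peaks (90.5%) and 2 non-transduced peaks (51.7%).

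Domains with no listed peak in any other list numbered 0 in HOXA9 cells, 6 in PML-RARa cells and 4 in MLL-AF9 cells, against 15 in the non-transduced list. As shares these were 0%, 6.98% and 5.97%, against 13.9%; over all peaks of each list the shares were 7.42%, 32.7% and 23.0%, against 23.2%. For HOXA9, taking a count of 0 to allow up to 3, 0 of 35 domains allows a share of up to 8.57%. The widest in PML-RARa was 116 kb on chromosome 8 at 108465291 to 108581544 (score 1180). It was followed by 97.0 kb on chromosome 9 at 69867471 to 69964420 and 76.4 kb on chromosome 8 at 125214326 to 125290755. In MLL-AF9 the widest was the 131 kb domain on chromosome 5 at 125496784 to 125628069, the 48th-highest score of that list. A further MLL-AF9 domain of 56.1 kb began 826 bp beyond it, and this neighbour was matched in PML-RARa by a peak of 56.1 kb but had no non-transduced peak. The next MLL-AF9 ones were 66.9 kb on chromosome 9 at 61488457 to 61555357 and 58.0 kb on chromosome 14 at 121928488 to 121986452.

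In the non-transduced list the 15 unmatched domains had a median score of 886 and a median width of 73.6 kb, compared with 1197.5 and 62.5 kb for the 42 domains matched in all 3 oncogene lists. By these medians unmatched non-transduced domains were wider and scored lower. The 4 unmatched MLL-AF9 domains scored lower (922 against 1224.5) but were narrower (62.4 against 65.4 kb). The 6 in PML-RARa scored lower (1101 against 1451) and were slightly wider (67.8 against 65.2 kb). The widest unmatched non-transduced domains were 108 kb on chromosome 7 at 151770085 to 151878385, 105 kb on chromosome 7 at 151344935 to 151450432, and 102 kb on chromosome 2 at 166417575 to 166519255. Of the oncogene domains absent from the non-transduced list, the widest in HOXA9 were 77.7 kb on chromosome 18 at 65798213 to 65875887 and 63.3 kb on chromosome 4 at 150160725 to 150224022. Another was 63.3 kb wide on chromosome 11 at 81791608 to 81854858. MLL-AF9 domains of 86.6 kb on chromosome 5 at 144854513 to 144941097 and 83.4 kb on chromosome 11 at 118810235 to 118893616 had no non-transduced peak either, nor had a PML-RARa domain of 81.8 kb on chromosome 5 at 114037071 to 114118902.

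An absent domain is one with no listed peak, and the lists hold only part of the numbered peaks. A number was missing between the neighbouring listed peaks, so that an unlisted call could lie there, at 44 of the 60 non-transduced domains absent from HOXA9, 10 of 24 absent from PML-RARa and 15 of 26 absent from MLL-AF9. At the other 16, 14 and 11, no number was missing and no numbered call was left out. Of the oncogene domains absent from the non-transduced list, no number was missing at 0 of 4 in HOXA9, 2 of 15 in PML-RARa cells and 3 of 14 in MLL-AF9 cells. Neighbouring listed peaks can lie far from a domain, so a missing call need not lie at it. How often a number was missing between any neighbouring listed peaks was not counted, so these counts cannot compare the lists.

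The domains were spread unevenly over the genome. Chromosomes 11, 2 and 15 held 40, 38 and 33 of the 296. Domains and peaks are pooled over the lists here, so 1 locus can count more than once. Of the merged loci, 24, 27 and 16 of 191 lay on these chromosomes. Chromosome 11 held 13.5% of the domains and 10.7% of all listed peaks, and chromosome 2 held 12.8% and 10.02%. Both were thus also rich in peaks of any width. Chromosome 15 stood further apart. It held 11.1% of the domains but 5.12% of all listed peaks, and 12.5% of its peaks were domains. On chromosome 18 this share was 12.4%, while on chromosome 13 1 of 163 peaks was a domain, and on chromosome X none of 16. Of the 191 loci, 88 lay in 36 runs with at most 500 kb between neighbours. The run with the most loci held 5 within 1.03 Mb near the end of chromosome 7, from 151344935 to 152372122. It included 1 locus over 50 kb in all 4 lists, 3 non-transduced domains with no other listed peak and 1 MLL-AF9 domain. Runs of 4 loci lay on chromosome 2 from 27701349, on chromosome 8 from 123239053, and on chromosome 11 from 94297781 and from 114595770. A neighbouring peak of the same list lay within 50 kb of 22.9% of HOXA9, 55.8% of PML-RARa and 55.2% of MLL-AF9 domains, against 51.9% of non-transduced domains. For peaks of 25 to 50 kb the shares were 22.2%, 45.2% and 48.1%, against 44.3%.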

How the data were processed

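Per the labels' protocols, cells were fixed with 1% formaldehyde and chromatin was sheared to 200 to 300 bp. Bowtie, MACS2 and the build mm9 are named in the submitters' processing notes, without versions, settings or the role of the input, which was not analysed here. Each deposited list has 5 columns: chromosome, start, end, name and score. The deposited score is the authors' own value with an unstated scale and was used within a list only. Deposited positions, the other values used, were read as BED and are printed counting from 1. The lists hold no read counts, so depth is unknown.

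Peaks above 50 kb were taken from each list, compared base by base with the other lists, and merged into loci where they overlapped. Base shares and medians were set beside the same over all or narrower peaks. Each group has 1 library, so no test was run; intervals are exact binomial. Domains were named by a rule on width, pieces, coverage and partners. The members and rules were chosen with earlier results of these data known. The gene table at hand is of another build, so genes were not assigned, except that the 4 Hox clusters were placed by their known mm9 position; an mm9 sequence was not used here. Other widths, joining of peaks, score limits and overlap limits were tried. The assignment of domains to these classes and their covered shares were checked on simulated domains. Software was Python 3.11.15 with pandas 2.3.3, numpy 2.4.6, matplotlib 3.10.9 and scipy 1.17.1.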

Additional observations from a re-analysis of the deposited data

How the results depend on the processing

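No paired analysis was possible because each group has 1 library. Shares were compared with their 95% interval over domains and counts with a factor of 1.5. Shares of bases were treated for this as if they were counts of domains, so their bounds are only rough. They are also wide, at 50.4 to 82.9% for the 35 HOXA9 domains in the non-transduced list. Staying within such bounds therefore says little. The number of domains follows the width limit by construction. Above 40 kb there were 62 in HOXA9 cells, 160 in PML-RARa cells and 124 in MLL-AF9, against 185 in the non-transduced list, with 320 loci and 22 in all 4 lists. Above 75 kb there were 11, 27 and 15 in HOXA9, PML-RARa and MLL-AF9, against 39 in the non-transduced list, with 66 loci and 3 in all 4 lists. In each case the non-transduced list held the most. Joining peaks within 3 kb gave 42, 117 and 84 domains in these oncogene lists, against 132, and 17 loci in all 4 lists instead of 9; without the HOXA9 list 19 loci were over 50 kb in the other 3. The held share above 75 kb fell to 18.5% for PML-RARa domains in the non-transduced list and to 12.8% for non-transduced domains in MLL-AF9. For the non-transduced domains above 50 kb, the share held in MLL-AF9 was 22.2%, and 31.5% when held meant 70%.

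With the upper 75% of the other list by score, the share of non-transduced domains with a partner was 67.6% in PML-RARa cells and 63.9% in MLL-AF9. With the upper 50%, it was 29.6% in HOXA9 cells, 57.4% in PML-RARa cells and 51.9% in MLL-AF9, and the bases covered were 18.9%, 37.6% and 33.5%. For oncogene domains in the upper 50% of the non-transduced list, partners were found for 65.7% of HOXA9, 65.1% of PML-RARa and 59.7% of MLL-AF9 domains, and 46.6% of PML-RARa and 47.9% of MLL-AF9 domain bases were covered. These shares fall because fewer peaks are left. With partners covering at least 50% of the domain, the shares were 68.6% for PML-RARa domains in the non-transduced list, and 29.6% in HOXA9 cells, 53.7% in PML-RARa cells and 56.5% in MLL-AF9 for non-transduced domains. The covered percent of non-transduced domains minus that of narrower peaks was -2.74 points in PML-RARa, but 0.35 points against peaks of 25 to 50 kb and 2.14 points with its best-scoring 620 peaks; the cause was not tested. The other 108 summary values stayed within these bounds, as did 94 of 108 shares between oncogene lists, of which the other 14 moved beyond them. Depth, which is unknown, limits what an absent peak means.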

Other observations

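Breaks under 3 kb between neighbouring peaks were examined at the 191 loci. There were 111 such breaks, with a median of 995 bp, at 99 sites. At 91 sites the break was in 1 list alone, at 5 in 2 lists, at 2 in 3 lists and at 1 in all 4. A peak of another list ran across 60 of the 99 sites (60.6%). Over all such breaks in the lists, 248 of 281 sites were broken in 1 list alone and 132 of 281 (47.0%) were run across by a peak of another list. The 281 sites include the 99. The loci were chosen for a peak over 50 kb in at least 1 list, which itself favours a peak running across a break there. The site broken in all 4 lists was at the higher end of the HoxA domain on chromosome 6, between 52210237 and 52211260, where each list had a further peak of 21.1 to 26.3 kb beyond it. On chromosome 8, between 124803950 and 124806729, the break was in PML-RARa, MLL-AF9 and the non-transduced list, with domains of MLL-AF9 and the non-transduced list on both sides. On chromosome 7, between 19679039 and 19680606, HOXA9, MLL-AF9 and the non-transduced list broke and a PML-RARa peak ran across.

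With the widest 35 peaks of each list in place of a fixed limit, the smallest width taken was 50.5 kb in HOXA9 cells, 68.9 kb in PML-RARa cells and 64.2 kb in MLL-AF9, against 76.4 kb in the non-transduced list. These peaks formed 101 loci, of which 75 were in 1 list, 17 in 2, 6 in 3 and 3 in all 4.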
